A study of Arabidopsis thaliana with 22 samples.

Results

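Leaf transcript levels at 0 h and 24 h, the same clock hour at either end of a daily cycle, were compared with those at 20 h in Arabidopsis thaliana, a small flowering plant used as a model species. The comparison held 6 of the 22 arrays of a series on transcripts and carbohydrate metabolism, 2 at 0 h, 2 at 24 h and 2 at 20 h, chosen by the hour in the source names. All plants were untreated Col-0, the standard laboratory accession, at growth stage 3.90, grown on compost at 20 degrees C with 12 h of light and 12 h of dark, and 20 plants were pooled per sample. Each hour has 1 sample from replicate series 1 and 1 from series 2. The title of the 24 h sample of series 2 alone carries the word repeat, and the labels do not say what was repeated. The 8 h and 16 h arrays, used for the time of day only, carry age tags of 5 h and 14 h, in conflict with their source names, so those hours are uncertain. They do not say in words which 12 h were light, so 20 to 24 h is described here only as the last 4 h before the switch at 24 h. In leaves, sugars made in the light are stored partly as starch and broken down in the dark, and a circadian clock sets many transcripts to rise or fall ahead of each switch. Plants are known to anticipate dawn and dusk in this way, so photosynthesis, pigment, growth and sugar genes may change in the hours just before a switch. Whether the clock drove any change here was not tested.

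Intensities were scaled by the authors to a common mean per array, and the median of the 6 arrays ran from 39.6 to 44.7. Across probe sets, which are no independent replicates, r between the 2 arrays of an hour was 0.959 to 0.965. Of the 6, the 20 h array of series 2 stood apart in its scan statistics, with a background average of 109 against 63.2 to 94.3 on the other 21 arrays and a noise average of 9.06 against 3.39 to 5.38. Results are therefore given with and without it. The actin ratio (3' over 5' signal), a sign of RNA integrity, was 3.11 (series 1) and 6.06 (series 2) at 20 h against 4.35 and 4.09 at 0 h, and 3.16 and 9.72 at 24 h, and its part in the results was not tested. Bacterial control probe sets, which should not match plant RNA, had a median of 2 over all arrays and a highest value of 29.2, so levels under 29.2 are not clearly above background. The leaf label was checked on 7 measured mesophyll markers (such as RCA, PSBY and LHCB4.1), whose summed intensity was 17352 to 23440 at 0 and 24 h and 19835 to 32432 at 20 h. The 3 measured root markers (PYK10, EXPA7 and EXPA18) summed to 43.4 to 74.8 and 59.7 to 61.8, the guard cell marker FMA to 40.1 to 58.7 and 44.2 to 57.7, and the meristem marker CLV3 to 2.3 to 4.3 and 2.9 to 3.7. These are 7 of 25 listed mesophyll, 3 of 19 root, 1 of 11 guard cell and 1 of 12 meristem markers. No listed phloem, xylem, epidermis, flower or seed marker was measured under a name, so the check is partial. None of the measured root, guard cell or meristem markers passed the test, while 1 of the 7 mesophyll markers, LHCB4.2, did and fell. In such bulk samples fewer cells of a type and less RNA per cell cannot be told apart.

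Over the last 4 h before the switch 249 of 22746 probe sets rose (1.09%) and 312 fell (1.37%), in all 561 (2.47%). The threshold was an adjusted p under 0.05 in limma, with the replicate series as a block, and differences are given as log2 difference, 0 and 24 h minus 20 h, ± standard error (SE; 4 arrays against 2). The SE uses the spread of the fit over all 22 arrays, not that of these arrays alone. At an unadjusted p under 0.05 there were 3096. The median difference was 0.90 among those that rose and -1.0 among those that fell, beside 0.01 over all probe sets. At least 2-fold changes were found for 96 that rose and 157 that fell. The 4 arrays at 0 and 24 h did not overlap with the 2 at 20 h for 529 of the 561, and over all probe sets for 3815 (16.8%), 8.09% with the later arrays higher and 8.68% with them lower. Those that fell had a median intensity of 222.5 at 20 h and 105 at 0 and 24 h, and those that rose had medians of 77.2 and 161. The direction within each pair of medians follows from the calls.

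The numbers depended on the pair of 20 h arrays. Without the 20 h array of series 2, 249 rose and 219 fell, and 291 of the 561 were among them. Without the 20 h array of series 1, 30 rose and 62 fell, and 78 of the 561 were among them. In both cases the one 20 h array left was assumed to vary like the other groups. Without the 24 h array titled as a repeat, 148 rose and 217 fell. A single gene stood for 274 of the 561 probe sets, 273 genes in all, 122 that rose and 151 that fell. This is 2.04% of the 13350 named genes (0.914% higher and 1.13% lower). Most genes are known here by their locus code only, and 37 of the 273 have a symbol.

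**Figure D1:**
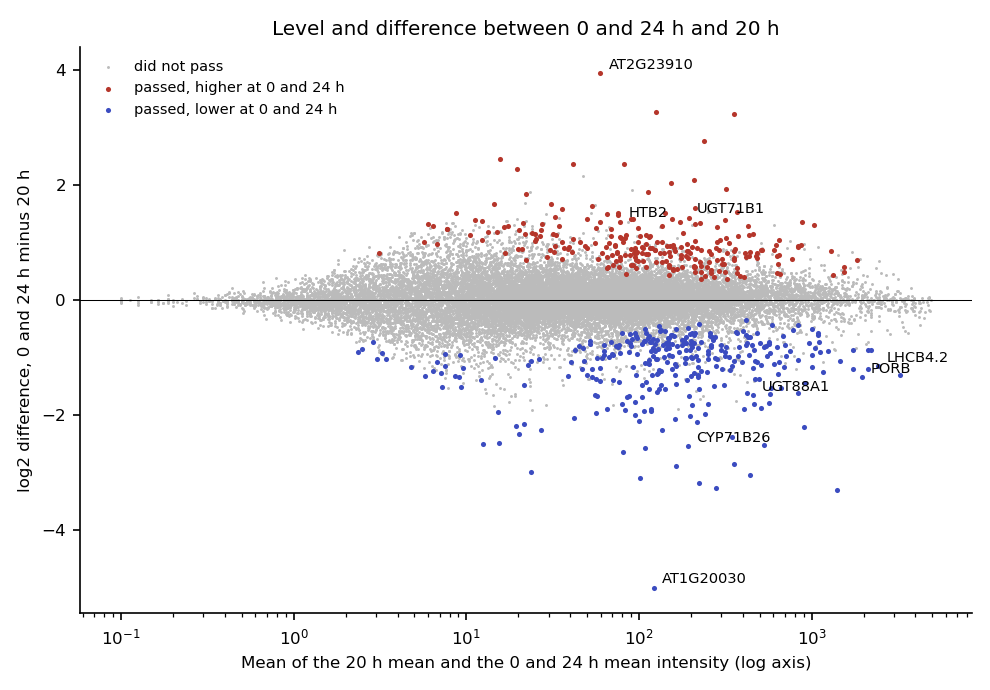
Mean intensity (log axis) against the log2 difference between 0 and 24 h and 20 h for all 22746 probe sets, with the 249 that rose in red, the 312 that fell in blue and the rest in grey. AT1G20030 at -4.99 and AT2G23910 at 3.95 lie farthest from 0 among the genes labelled.

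The fall with the largest difference among named genes was that of AT1G20030, of which the annotation used here gives only the locus. Its intensity was 265 in series 1 and 214 in series 2 at 20 h against 1.1 and 6.4 at 0 h, and 3.8 and 4.1 at 24 h. The transcript was thus well above the bacterial controls at 20 h and at their level on all 4 later arrays. Its difference was -4.99 ± 0.32 (adjusted p = 1.6e-06). With a pseudocount of 40 the difference was -2.67, so its size depends on that choice. AT5G62360 went from 845 and 728.5 at 20 h to 90.4 and 92.1 at 0 h and 100 and 87.7 at 24 h (-3.03 ± 0.50; adjusted p = 0.00468). AT3G15450 stood at 983 and 301 at 20 h and at 57.8 to 83.3 on the 4 later arrays (-2.84 ± 0.33; adjusted p = 0.000282). AT2G15960 had 1597 and 1368 at 20 h against 265 and 252 at 0 h and 370 and 410 at 24 h (-2.21 ± 0.16; adjusted p = 5.8e-06). The series 1 array was the higher of the 2 at 20 h in all 3, and in each the groups did not overlap. The other locus codes among the 20 largest named falls were AT5G35970 (-2.38), AT5G42250 (-2.26), AT1G22570 (-2.12), AT1G70420 (-2.09), AT1G13650 (-2.05), AT1G73480 (-1.97), AT2G30600 (-1.93), AT1G19450 (-1.81), AT5G57345 (-1.79), AT4G36010 (-1.76), AT5G02180 (-1.68) and AT1G66100 (-1.60). Without the 20 h array of series 1, AT1G13650, AT1G66100, AT2G30600, AT4G36010, AT5G42250 and AT5G62360 did not pass (limma adjusted p from 0.0547 to 0.374), and AT5G62360 was at -3.34. Without that of series 2, AT1G13650, AT4G36010 and AT5G62360 did not (0.0582 to 0.111), and AT5G62360 was at -2.72.

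The remaining 4 of these 20 have a known name. CYP71B26, a cytochrome P450 monooxygenase, had 313 and 343 at 20 h against 28.2 and 58.7 at 0 h and 47.9 and 96.3 at 24 h (-2.54 ± 0.33; adjusted p = 0.000752). UGT88A1, a UDP-dependent glycosyltransferase that attaches sugar to small molecules, had 816 and 581 at 20 h against 240 and 174 at 0 h and 258 and 205 at 24 h (-1.65 ± 0.15; adjusted p = 2.6e-05). SWEET17, a fructose transporter of the vacuole membrane, had 289 and 308 at 20 h against 85.3 and 119 at 0 h and 80.8 and 85.8 at 24 h (-1.66 ± 0.32; adjusted p = 0.0116). In all of them each of the 4 later arrays lay below both 20 h arrays. AT5G61590, listed in RefSeq under the synonym DEWAX, a repressor of cuticular wax synthesis, had 583 and 701 at 20 h against 197 and 143 at 0 h and 158 and 190 at 24 h (-1.88 ± 0.44; adjusted p = 0.0369). SWEET17 and AT5G61590 did not pass without either 20 h array, with -1.88 and -1.69 without that of series 1 (adjusted p = 0.0824 and 0.328) and -1.44 and -2.07 without that of series 2 (0.113 and 0.107).

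PORB, LHCB4.2, AT1G74470 and TRXF2, chloroplast genes of pigment synthesis, light harvesting and redox control, fell. AT1G74470 is in none of the gene lists and was picked by hand among the genes that passed. PORB, a light-dependent enzyme of chlorophyll synthesis, had 3734 and 1903 at 20 h against 1322 and 1101 at 0 h and 1430 and 596 at 24 h (-1.33 ± 0.27; adjusted p = 0.0162). LHCB4.2, a minor antenna protein of photosystem II, had 4072 and 2685 at 20 h against 1455 and 1486 at 0 h and 1798 and 1258 at 24 h (-1.15 ± 0.19; adjusted p = 0.00426). AT1G74470, whose RefSeq synonym is geranylgeranyl reductase, the enzyme that makes the phytyl tail of chlorophyll, had 3346 and 2150 at 20 h and 1302 to 1552 on the 4 later arrays (-0.87 ± 0.18; adjusted p = 0.022). TRXF2, a chloroplast thioredoxin that relays light signals to metabolic enzymes, had 653 and 489 at 20 h and 271 to 364 later (-0.78 ± 0.17; adjusted p = 0.0268). None of these 4 passed without the 20 h array of series 1, where PORB was at -1.13, LHCB4.2 at -0.87, AT1G74470 at -0.57 and TRXF2 at -0.53 (adjusted p from 0.135 to 0.406), and all 4 passed without that of series 2. For all 4 the series 1 array was the higher of the 2 at 20 h. This was so for 15 of the 18 measured genes of the photosystem, light-harvesting, Calvin cycle and chlorophyll lists, and for 52.8% of all probe sets.

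Most of the photosynthesis genes did not pass. Of those 18 genes 2 fell (PORB and LHCB4.2) and none rose, with a median difference of -0.20, beside 2.04% of all named genes called. LHCB4.1, a close relative of LHCB4.2, had 6417 and 3655 at 20 h against 4660 and 3632 at 0 h and 4309 and 3165 at 24 h (-0.31; adjusted p = 0.546). LHCB4.3, the third antenna gene of this family, had 886 and 1341 at 20 h against 1208 and 1837 at 0 h and 1215 and 1654 at 24 h (0.41; adjusted p = 0.114). The 3 genes thus had differences of unlike sign, 1 of which passed. The 4 measured photosystem subunit genes (PSAN, PSBY, PSAE-1 and PSBW) had differences from -0.37 to -0.18, and the 3 Calvin cycle genes (RCA, PRK and SBPASE) from -0.14 to 0.04.

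Among hormone genes IAA29, an auxin-induced repressor of auxin signalling, had 233 and 136 at 20 h against 69.0 and 51.6 at 0 h and 97.1 and 76.4 at 24 h (-1.27 ± 0.29; adjusted p = 0.0335). It was the 1 of 12 measured auxin genes that passed (list median -0.02), beside 2.04% of all named genes. GID1C, a gibberellin receptor, had 55.0 and 68.8 at 20 h against 25.2 and 28.7 at 0 h and 34.5 and 45.3 at 24 h (-0.84 ± 0.19; adjusted p = 0.0276), and its 0 h levels are under the highest bacterial control. In both genes the 0 h arrays were lower than the 24 h arrays of the same series, and all 4 were below 20 h. TET3, a membrane protein of the tetraspanin family, went from 355 and 413 to 131 to 198.5 (-1.15 ± 0.15; adjusted p = 0.000752). TUB5, a beta-tubulin of the microtubules, went from 882 and 619 to 313 to 452 (-0.92 ± 0.19; adjusted p = 0.0167) and was the 1 of 9 tubulin and actin genes that passed (list median 0.02, again beside 2.04%). Without the 20 h array of series 1, IAA29 was at -0.81 (adjusted p = 0.478), GID1C at -0.96 (0.136) and TUB5 at -0.72 (0.286), and none of them passed. Without that of series 2, IAA29 was at -1.72 and passed, as did TUB5, and GID1C was at -0.72 and did not (0.186).

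The other named falls were smaller or at lower levels. PDC2, a pyruvate decarboxylase of fermentation, had 734 and 924 at 20 h against 298 and 391 at 0 h and 347 and 503 at 24 h (-1.12 ± 0.18; adjusted p = 0.00463). BGLU44, a beta-glucosidase, had 2330 and 1639 at 20 h against 771 and 1058 at 0 h and 1173 and 793 at 24 h (-1.06 ± 0.21; adjusted p = 0.0141). No later array of either gene reached its 20 h level. MSRB5, which repairs oxidised methionine, differed by -1.03, GR, a glutathione reductase, by -0.57 and Fes1B, named for a chaperone cofactor, by -1.0. TIL, a temperature-induced lipocalin, differed by -0.73, CCT2, an enzyme of phosphatidylcholine synthesis, by -0.71, and GLR3.3, a glutamate receptor-like channel, by -0.57. AT5G15050, with the RefSeq synonym GlcAT14B for a glucuronosyltransferase of cell wall glycoproteins, differed by -0.83 and TBL25, of the trichome birefringence-like family, by -0.57. IQD22, a calmodulin-binding IQ-domain protein, differed by -1.32. WRKY42, a transcription factor, had 18.7 and 9.7 at 20 h and 2.3 to 3.8 later (-1.32 ± 0.24; adjusted p = 0.00828), levels that are all under the highest bacterial control. Adjusted p of the 9 genes given here without one ran up to 0.0461. None of the genes from PDC2 to WRKY42 passed without the 20 h array of series 1 (adjusted p from 0.0892 to 0.487). Without that of series 2, PDC2, BGLU44, Fes1B, TIL, AT5G15050 and WRKY42 passed, and MSRB5, GR, CCT2, GLR3.3, TBL25 and IQD22 did not (0.0504 to 0.224).

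**Figure D2:**
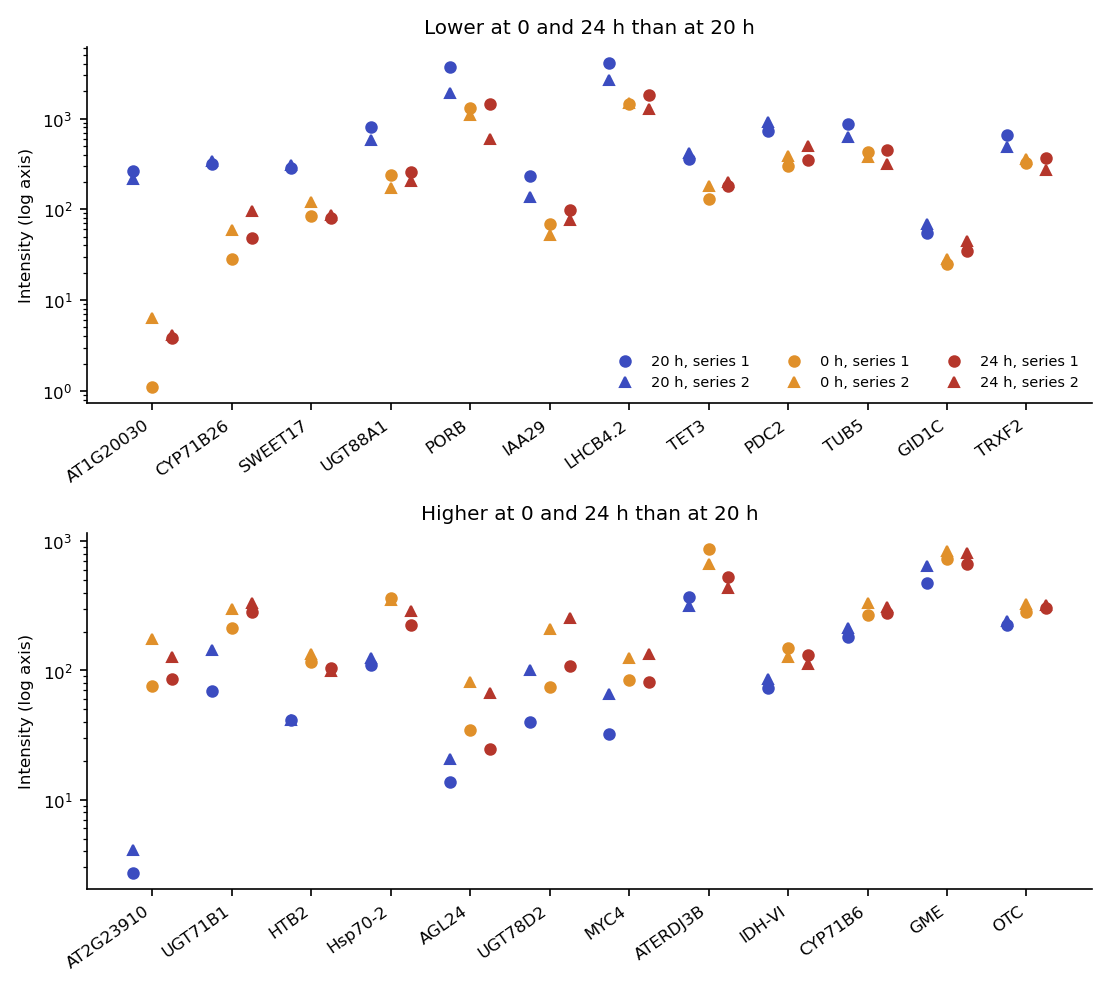
Intensity (log axis) on each of the 6 arrays for 12 genes that fell (top) and 12 that rose (bottom), by hour (colour) and replicate series (circle for 1, triangle for 2). In the top panel both 20 h points lie above the 4 others of each gene, and in the bottom panel they are the lowest of each gene except UGT78D2, where the 20 h point of series 2 at 102 lies above the 0 h point of series 1 at 74.7.

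The rise with the largest difference among named genes was that of AT2G23910, known here by its locus only. Its intensity was 2.7 and 4.1 at 20 h against 76.4 and 176 at 0 h and 85.5 and 127 at 24 h (3.95 ± 0.30; adjusted p = 5.8e-06). It was at the level of the bacterial controls on both 20 h arrays and above them on the 4 later ones, and the difference was 1.80 with a pseudocount of 40. AT1G06000 had 38.9 and 123 at 20 h against 241 and 574 at 0 h and 192 and 340 at 24 h (2.08 ± 0.35; adjusted p = 0.00505). AT5G59670 had 107 and 157 at 20 h against 484 and 549 at 0 h and 534 and 472 at 24 h (1.94 ± 0.23; adjusted p = 0.000282). AT4G33140 had 41.0 and 56.8 at 20 h and 127.5 to 140.5 on the 4 later arrays (1.41 ± 0.13; adjusted p = 2.9e-05). These later arrays lay close together for the last gene, while those of AT1G06000 were higher in series 2 at each hour. The other locus codes among the 20 largest named rises were AT5G40690 (1.44), AT5G58120 (1.40), AT3G19030 (1.40), AT3G60420 (1.39), AT1G78020 (1.37), AT4G30500 (1.35), AT1G61740 (1.29), AT1G13640 (1.26), AT5G51770 (1.25), AT1G11700 (1.24), AT3G19100 (1.14) and AT4G34630 (1.13). Without the 20 h array of series 1, AT1G06000, AT5G58120, AT3G19030, AT3G60420, AT4G30500, AT1G61740, AT5G51770, AT1G11700 and AT3G19100 did not pass (limma adjusted p from 0.0505 to 0.19), with AT1G06000 at 1.67 and AT5G51770 at 0.80. All of the rises named here passed without that of series 2.

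Rises with a known name included glycosyltransferases, a histone, chaperones and transcription factors. UGT71B1, a UDP-dependent glycosyltransferase, had 69.7 and 144 at 20 h against 213 and 301.5 at 0 h and 284 and 331 at 24 h (1.44 ± 0.26; adjusted p = 0.00753). UGT78D2, a glucosyltransferase of flavonoids and anthocyanins, had 40.1 and 102 at 20 h against 74.7 and 208 at 0 h and 108 and 257 at 24 h (1.12 ± 0.26; adjusted p = 0.0335). The groups overlap across series in UGT78D2. Within each series its later arrays were higher 4 times of 4, but all 4 such differences were on the same side in 560 of the 561 calls. UGT71B1, UGT78D2 and UGT88A1 were the 3 of 47 measured glycosyltransferase genes that passed, 2 higher and 1 lower, with a list median of 0.02, beside 0.914% and 1.13% of all named genes. Neither UGT71B1 at 1.18 (adjusted p = 0.175) nor UGT78D2 at 0.87 (0.39) passed without the 20 h array of series 1. Without that of series 2, UGT71B1 passed and UGT78D2 did not (0.0547). UGT78D1, a flavonol rhamnosyltransferase, differed by 1.09 (adjusted p = 0.0692) and CHIL, a chalcone isomerase-like protein, by 1.92 (adjusted p = 0.0829), and neither passed. None of the 6 measured genes of the flavonoid and phenylpropanoid list passed. CHIL was the only one of them with a difference above 0, and the list median was -0.24.

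HTB2, a core histone that packs DNA, had 41.4 on both 20 h arrays, 116 and 134 at 0 h and 105 and 99.3 at 24 h (1.37 ± 0.20; adjusted p = 0.00192). It was the 1 of 9 measured histone and chromatin genes that passed (list median 0.21), beside 2.04% of all named genes and their median of 0.01, and it passed without either 20 h array. Hsp70-2, a heat shock chaperone, had 110 and 125 at 20 h against 364 and 350.4 at 0 h and 223 and 291 at 24 h (1.33 ± 0.25; adjusted p = 0.0114). ATERDJ3B, a co-chaperone of the endoplasmic reticulum, had 370 and 315 at 20 h against 869 and 663 at 0 h and 529 and 432 at 24 h (0.81 ± 0.19; adjusted p = 0.0335). Both chaperone genes were higher at 0 h than at 24 h in each series, and at 20 h lower than at either. SPP, here a signal peptide peptidase that cuts within membranes, rose by 0.47 ± 0.11 (adjusted p = 0.0384). Hsp70-2, ATERDJ3B and SPP did not pass without either 20 h array (adjusted p from 0.0682 to 0.207).

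AGL24, a MADS-box factor of flowering, had 13.8 and 20.6 at 20 h against 34.7 and 81.7 at 0 h and 24.8 and 66.5 at 24 h (1.28 ± 0.24; adjusted p = 0.00963), and its 20 h levels are under the highest bacterial control. MYC4, a basic helix-loop-helix factor of jasmonate signalling, had 32.1 and 65.6 at 20 h against 84.4 and 125 at 0 h and 80.9 and 133 at 24 h (1.1 ± 0.22; adjusted p = 0.0157). NAC014, a NAC factor, had 19.7 and 21.4 at 20 h and 31.9 to 46.8 later (0.76 ± 0.18; adjusted p = 0.0428), and its 20 h levels are likewise under the highest bacterial control. In all 3 factors both 20 h arrays were below the 4 others. Among metabolic genes, IDH-VI, a subunit of isocitrate dehydrogenase, rose by 0.68, GME, an epimerase that feeds ascorbate and cell wall synthesis, by 0.46, and OTC, which makes citrulline on the way to arginine, by 0.41. CYP71B6, a cytochrome P450, rose by 0.58 from 183 and 212 at 20 h to 268.5 to 334, CRR42, an assembly factor of a chloroplast complex, by 0.53 and IQD24, an IQ-domain protein, by 0.68. ARLA1B, a small GTPase, passed as well, with 6.4 and 3.3 at 20 h and 15.9 to 27.2 later, all under the highest bacterial control, so no size is given, and with a pseudocount of 40 it did not pass (adjusted p = 0.0692, in a range of 0.0254 to 0.232 over 16 alternatives). Adjusted p of the 7 genes from IDH-VI to ARLA1B ran up to 0.0478. None of the genes from AGL24 to ARLA1B passed without the 20 h array of series 1 (0.0824 to 0.544), where IQD24 was at 0.39. Without that of series 2, MYC4, CYP71B6, GME and IQD24 passed.

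Over the 47 gene lists with a measured member, 5 of 383 genes rose and 12 fell (4.44% called, median difference -0.03), beside 2.04% of all named genes and their median of 0.01. Without the 20 h array of series 2, 7 rose and 10 fell, with 12 of the 17 among them, and without that of series 1, 1 rose and 2 fell. Of the 40 genes with the largest named changes the groups did not overlap in 38, and 33 passed without the series 2 array and 20 without the series 1 array. Of the 37 genes with a symbol 19 and 4 did. The lack of overlap in 38 of the 40 is no added support, since these were chosen among calls with the same sign in both series. It held for 529 of the 561 calls and for 16.8% of all probe sets. Further lists with a call were cytochrome P450 with 1 of 24 higher (CYP71B6) and 1 lower (CYP71B26; median 0.06), chlorophyll synthesis with 1 of 8 lower (PORB; median -0.25), and thioredoxins and other redox genes with 1 of 10 lower (TRXF2; median 0.01). In the glucosinolate list, which holds all beta-glucosidases by name, 1 of 27 fell (BGLU44; median -0.11), and among cellulose and wall assembly genes 1 of 51 (TBL25; median -0.10). For gibberellin and brassinosteroid 1 of 3 fell (GID1C; median -0.47), for WRKY factors 1 of 7 (WRKY42; median -0.01), and the 1 measured NAC factor rose (NAC014).

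The carbohydrate lists held no gene that passed. For starch synthesis 3 genes were measured. APL3, a large subunit of ADP-glucose pyrophosphorylase, had 101 and 149 at 20 h against 156 and 160 at 0 h and 216 and 214.5 at 24 h (0.57 ± 0.26; adjusted p = 0.361). All 4 later arrays lay above the 20 h arrays, as in 8.09% of all probe sets. APL4, another large subunit, had a difference of -0.22 (adjusted p = 0.831) at levels under the highest bacterial control, and SBE2.2, a branching enzyme, of -0.09 (adjusted p = 0.842). For starch breakdown PWD, a kinase that phosphorylates glucan chains, had 717 and 766 at 20 h against 743 and 1012 at 0 h and 1039 and 1034.5 at 24 h (0.35 ± 0.16; adjusted p = 0.342). DPE1, the plastid disproportionating enzyme, differed by 0.09 and AMY1, an alpha-amylase, by -0.11. F2KP, which makes and removes a regulator of sucrose synthesis, differed by 0.27 (adjusted p = 0.339). SWEET17 was the 1 of 17 measured sugar transporter genes that passed (list median 0.03). SWEET1, another member, had 177 and 161 at 20 h and 206 to 274 later (0.46; adjusted p = 0.0982), and SWEET13, linked to sucrose export, differed by -0.65 (adjusted p = 0.121).

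No gene of the clock and cold lists passed either. Only 2 evening clock genes, 1 morning clock gene and 4 cold and abscisic acid genes were measured under a name. With 8730 probe sets unnamed here, the clock as a whole was not covered, and nothing is concluded about it. GI, an evening gene of the clock, had 712 and 602 at 20 h against 400 and 477 at 0 h and 484 and 519 at 24 h (-0.48 ± 0.48; adjusted p = 0.765). The 20 h arrays were above the 4 others, as in 8.68% of all probe sets, and the spread of this gene in the fit over all hours was large. COR27, a cold-regulated gene of the clock, differed by 0.05, TIC, a clock regulator, by 0.14 and AFR, of far-red light signalling, by -0.45 (adjusted p = 0.802). LTI30, a dehydrin of the cold response, had 350 and 279.5 at 20 h against 58.1 and 79.8 at 0 h and 171.5 and 137 at 24 h (-1.57 ± 0.46; adjusted p = 0.0964). COR47, also a dehydrin, differed by -1.08 (adjusted p = 0.221), COR15B by -0.28 and COR15A by -0.01. No gene passed among the 7 of darkness and low sugar (median -0.13), the 10 of autophagy (-0.06), the 27 of proteasome and ubiquitin (-0.04), the 28 of expansins, XTHs and wall loosening (0.03) or the 13 glutathione transferases (0.07). EXPA8, an expansin, had 797 and 440 at 20 h and 179 to 261 later (-1.42; adjusted p = 0.0998).

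The 2 ends of the cycle were then compared, since the pooled group joins samples that are a day apart. No probe set passed between 24 h and 0 h in limma, with 1400 at an unadjusted p under 0.05 (6.15%). Without the 24 h array of series 1, 25 passed, and without the 0 h array of series 1, 1 did. A count of 0 does not show that the 2 hours were alike. Taken alone, the 24 h arrays gave 271 calls (1.19%), with 118 probe sets higher than 20 h (0.519%) and 153 lower (0.673%), and the 0 h arrays 164 (0.721%) and 243 (1.07%). These share the 20 h arrays with each other and with the pooled comparison. For all 561 probe sets the difference of 24 h from 20 h had the sign of the pooled difference, and 260 of them passed at 24 h alone.

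Arrays outside the comparison were used to place these genes in the day, by the hours of the source names. The age tag of both arrays called 16 h here is 14 h, so this hour is uncertain in all that follows, although they are other arrays than those at 14 h. Among the 8 other hours, 126 of the 312 probe sets that fell had their highest mean at 16 h (40.4%), against 12.9% of all probe sets. Of the 249 that rose 3 did (1.2%), while 64 were highest at 1 h (25.7%, against 12.8% of all) and 51 at 14 h (20.5%, against 11.9%). The difference of 16 h minus 1 h had a median of 0.55 in those that fell, -0.37 in those that rose and 0.01 over all, and 116 of the 312 (37.2%) were at least 2-fold higher at 16 h, beside 3.10% of all. Over all 11 hours 142 of the 312 were highest at 20 h (45.5%, against 13.4% of all probe sets) and 79 at 16 h (25.3%, against 6.66%). Of the 249, 167 were lowest at 20 h (67.1%, against 7.94% of all). The last counts rest in part on the arrays that made the calls and are given as a description.

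**Figure D3:**
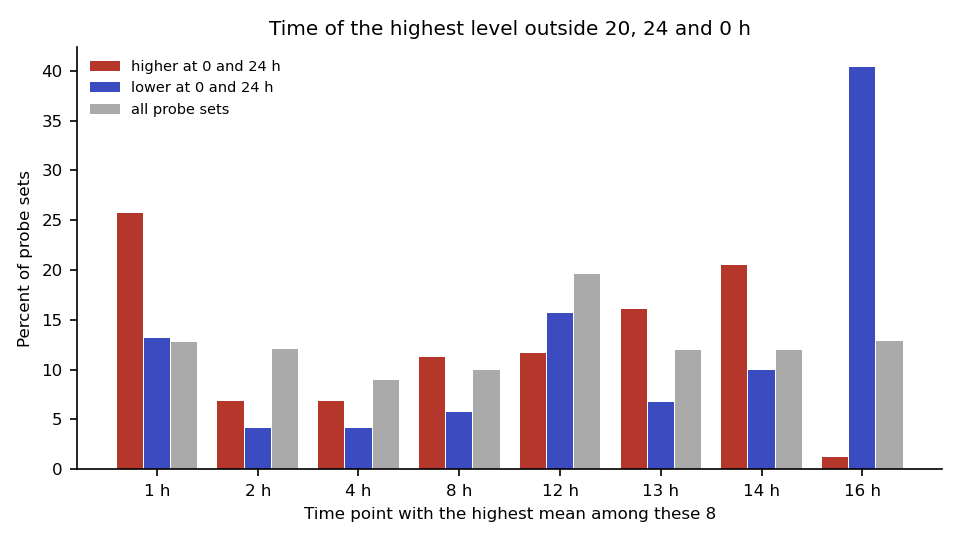
Percent of probe sets with their highest mean at each of the 8 hours outside the comparison, for the 249 that rose (red), the 312 that fell (blue) and all 22746 (grey). At 16 h the bar of those that fell reaches 40.4%, that of all probe sets 12.9% and that of those that rose 1.2%. Hours are those of the source names, and the 16 h arrays carry an age tag of 14 h.

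The time courses differed among the genes that fell. AT1G20030 stood at 0.7 to 10.6 at every other hour in both series, so that its high level was seen at 20 h alone. UGT88A1 was highest on the arrays called 16 h with 1154 and 914, and LHCB4.2 in series 1 also at 16 h with 4180. PORB was at 146 and 76.8 at 14 h and 1068 and 587 at 16 h before its 20 h values, so it was highest at 20 h in both series. PDC2 and BGLU44 were likewise highest at 20 h in both series. Of the genes that rose, AT2G23910 was at 0.8 to 4.1 from 12 to 20 h and at 20.4 to 176 at all other hours, and HTB2 was at 38.5 to 52.8 from 13 to 20 h and at 45.6 to 141 at all others. UGT78D2 was highest at 13 h, with 634 and 824.

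**Figure D4:**
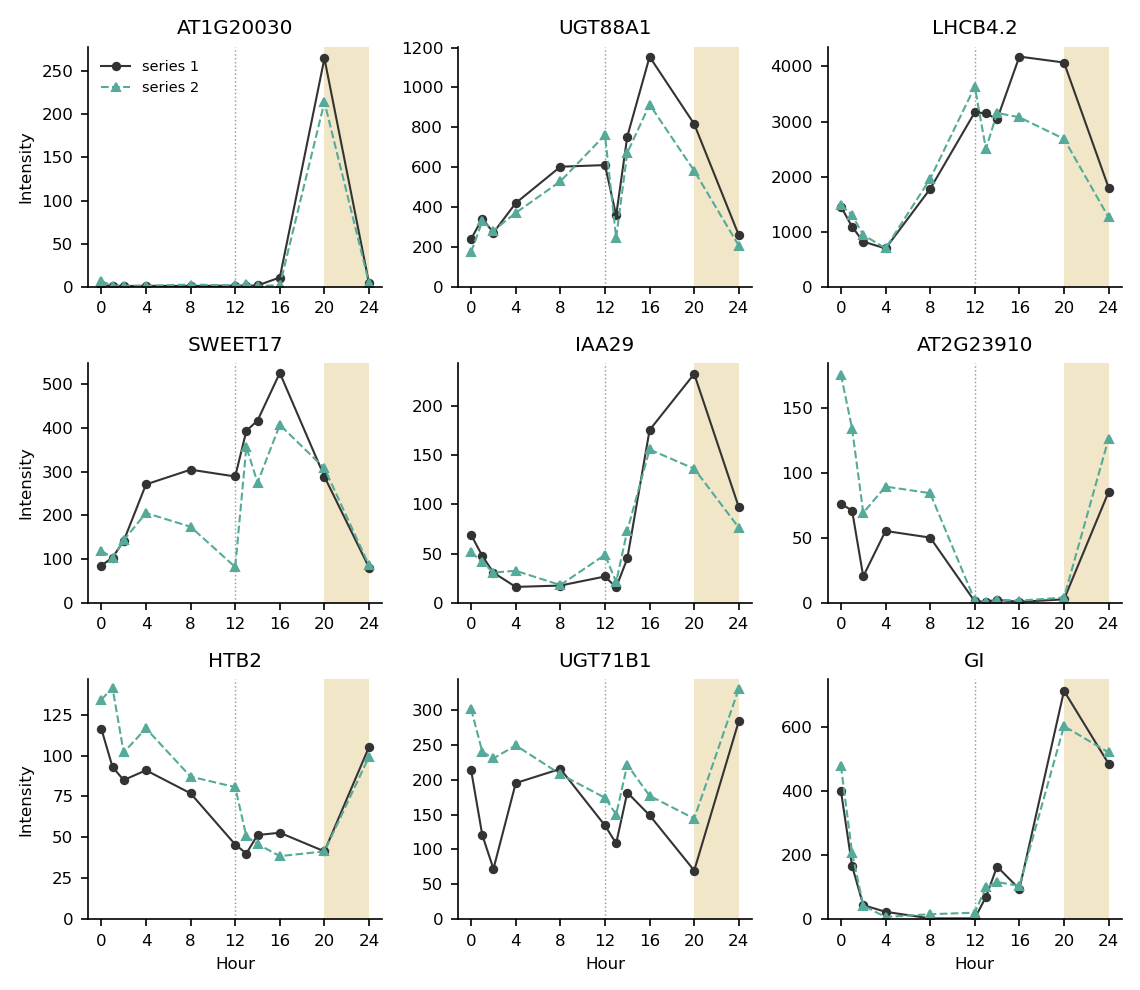
Intensity over the 11 hours for 8 genes that passed and for GI, which did not, with series 1 as circles and series 2 as triangles. The last 4 h are shaded and the dotted line marks 12 h, and 0 h and 24 h are separate samples. AT1G20030 shows 1 high hour (265 and 214 at 20 h), and AT2G23910 is low from 12 to 20 h.

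The last 4 h before the switch at 24 h were set against the last 4 h before the switch at 12 h, measured as 12 h minus 8 h on 4 other arrays. In that earlier step 390 probe sets passed (1.71%), 216 of which rose (0.95%) and 174 fell (0.765%). Of the 561 probe sets 88 (15.7%) also passed there, which is 22.6% of its calls. Both steps had the same direction for 32 of the 88 and opposite directions for 56, of which 41 rose before 12 h and fell before 24 h and 15 the other way round. The difference between the 2 steps, tested directly, passed for 611 probe sets (2.69%), 260 with the later step above the earlier one and 351 below it. Of the 561, 267 were among them (47.6%), a count that shares its arrays with the calls.

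Genes that moved the same way before both switches included PDC2, which fell by 1.12 before 24 h and by 1.96 before 12 h (adjusted p = 0.00011 for the latter). BGLU44 fell by 1.06 and 1.36, and GME rose by 0.46 and 0.51. For these 3 the difference between the steps did not pass (adjusted p from 0.16 to 0.94), and none of their falls or rises before 24 h passed without the 20 h array of series 1. AT2G23910 moved in opposite directions, with 3.95 before 24 h and -3.66 before 12 h (67.4 at 8 h and 1.5 at 12 h, means of 2 arrays), a difference between steps of 7.61 ± 0.46 (adjusted p = 4.1e-07). AT5G35970 fell by 2.38 before 24 h and rose by 1.81 before 12 h, AT1G73480 fell by 1.97 and rose by 2.23, and AT5G57345 fell by 1.79 and rose by 1.37. In these genes the step before 24 h was the reverse of the step before 12 h, each with its own call. For LHCB4.2 (-1.15 and 0.86) and IAA29 (-1.27 and 0.89) the earlier step did not pass, and the difference between the steps did (adjusted p = 0.0012 and 0.018). IAA29 at 8 h, with a mean of 17.9, was under the highest bacterial control. AT1G20030, at -4.99 and -0.07, fell before 24 h and was under the highest bacterial control at 8 and 12 h. This comparison takes the 8 h arrays by their source names, against their age tag of 5 h.

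**Figure D5:**
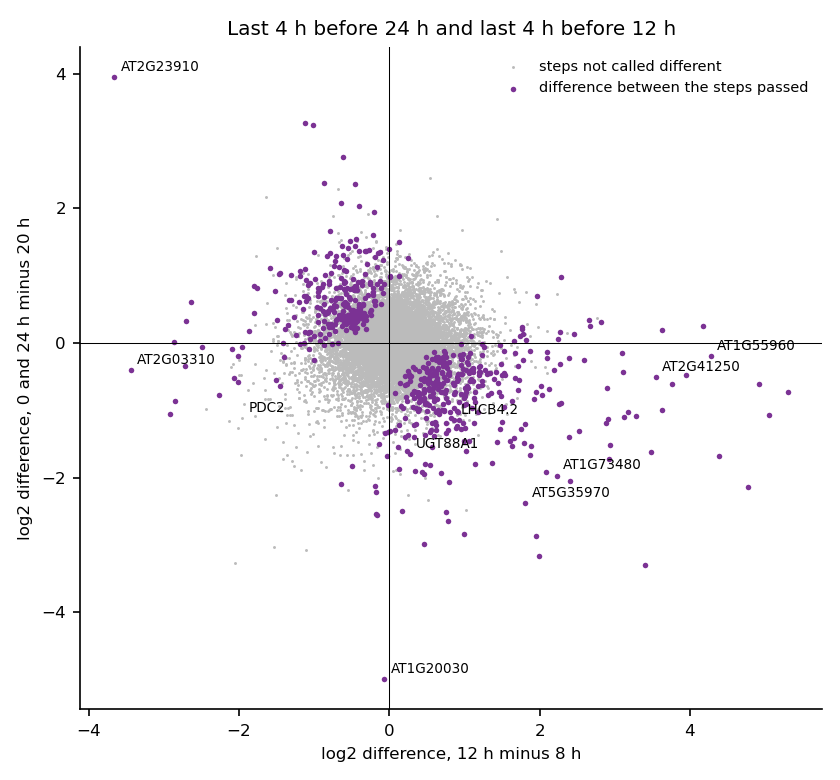
Log2 difference of 12 h minus 8 h (horizontal) against 0 and 24 h minus 20 h (vertical) for all 22746 probe sets, with the 611 whose 2 steps differed in purple. AT2G23910 lies at the top left (-3.66 and 3.95) and AT1G20030 at the bottom near the vertical line (-0.07 and -4.99).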

How the data were processed

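The values deposited by the authors are intensity values of probe sets on a linear scale from 22 Affymetrix ATH1 arrays. From the values, each array had been scaled by the authors to a mean of 100 without the lowest and highest 2%. Which software they used: not given in the sources used here. Of 22810 probe sets 64 controls were left out of tests. The platform annotation named 1 gene for 13513 probe sets, several for 503, and 8730 are unnamed here. Symbols came from RefSeq TAIR10.1. Values were transformed to log2(value + 4), which understates changes of low genes. Limma 3.58.1 in R 4.3.3 fitted 1 mean per hour and the replicate series as a block on all 22 arrays (10 residual degrees of freedom), with eBayes and a trend, two-sided tests and Benjamini-Hochberg adjustment over 22746 probe sets. The pairing comes from the replicate numbers. Differences between series correlated with r from 0.136 to 0.451 over the 55 pairs of hours. Whether replicates were separate plantings is not stated in the labels, so p-values cannot be said to cover the spread between plantings. They rest on the spread left after the block, pooled over all 22 arrays, and not on the arrays compared alone. No detection calls were used. The number of arrays limits the precision.

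The hours, the 53 gene lists and the tests were chosen with earlier results of these data known. From the lists 18 names were removed after seeing that their letters stood for other proteins, and 6 lists had no measured member. Named were, per direction, the 20 genes with the largest differences among those that passed with a mean of at least 50 and the same sign in both series, list members, and the 8 largest differences between steps. The other genes with a symbol were added after their values were seen. AT1G74470 and AT5G15050, which have no symbol, were picked by hand among the genes that passed. The fit was checked on simulated data. A planned search for promoter motifs was not run. Alternatives were pseudocounts of 1 and 40, the brightest 60% of probe sets, quantile normalization, equal medians, no block, no trend, array weights, only the arrays compared, each array left out, and 0 h or 24 h alone.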

Additional observations from a re-analysis of the deposited data

Results flagged for a closer look

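The change over the last 4 h differed between the 2 steps (0 and 24 h minus 20 h, less 12 h minus 8 h) for 611 probe sets, tested as an interaction in limma. Named are the genes with the largest such differences and the list members that passed. On the log2 scale the later step was below the earlier one by the following differences. AT1G20030 had -4.93, AT1G55960 -4.48, AT1G13650 -4.46, AT1G70985 -4.45, AT1G73480 -4.20, AT5G35970 -4.19, AT2G41250 -4.06 and AT1G26790 -3.93. The sizes for AT1G20030, AT1G70985, AT1G26790 and AT1G13650, and those for CYP71B26 and AT2G23910 further on, rest on means under the highest bacterial control (29.2) in at least 2 of the 4 groups of arrays, so their order is not measured. AT1G70985 had means of 12.8 at 20 h, 1.8 at 0 and 24 h and 4.2 at 8 h, and AT1G13650 of 14.2 at 0 and 24 h and 11.6 at 8 h. AT1G55960, AT2G41250 and AT1G26790 rose before 12 h (4.28, 3.55 and 4.18), and their differences before 24 h were -0.20, -0.51 and 0.25 and did not pass. Among list members CYP71B26 had -2.36, IAA29 -2.15, LHCB4.2 -2.01, UGT88A1 -1.92, GID1C -1.47, AKINBETA1, a subunit of the SnRK energy kinase, -1.40, MCCA, an enzyme of leucine breakdown, -1.24 and TRXF2 -1.16. The later step was above the earlier one for AT2G23910 (7.61), AT2G03310 (3.04), AT4G34950 (2.88), AT1G06000 (2.73), AT1G52770 (2.70), AT1G07050 (2.43), AT1G17665 (2.37) and AT4G30500 (2.36). Of these AT2G03310, AT4G34950, AT1G07050 and AT1G17665 fell before 12 h (-3.44, -2.86, -2.49 and -2.71) and had differences of -0.40, 0.01, -0.06 and -0.34 before 24 h, none of which passed. List members above 0 were UGT71B1 (1.90), HTB2 (1.77), PWD (1.05), LHCB4.3 (0.96), TUB9, a beta-tubulin, (0.91), CYP71B6 (0.69) and HTB4, a histone gene, (0.69).

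In 3 of 70 genes 1 of the 4 arrays at 0 and 24 h lay far from the other 3, and chance marks about 1 in 20. In each it was the 0 h array of series 2, with 15.9 for ARLA1B (26.7 to 27.2 on the others), 151.4 for MSRB5 (138.9 to 140.7) and 119.1 for SWEET17 (80.8 to 85.8).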

How the results depend on the processing

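Across the 17 alternatives the 72 named genes that passed kept their direction in every one run. This kept direction is no added support, since the genes were chosen as calls on the same arrays. All 4 within-series differences were on the same side in 560 of the 561 calls. Of the 72 genes, 19 passed in every one run for them (7 higher and 12 lower), among them AT2G23910, HTB2, CYP71B26, UGT88A1, TET3 and AT2G15960. AT1G20030, also of the 19, passed in the 16 run for it, as it is not among the brightest 60% of probe sets. The block mattered for the counts: with no replicate block 88 probe sets were higher and 142 lower at 0 and 24 h than at 20 h, 37 and 56 at 24 h, 113 and 76 at 12 h than at 8 h, and 254 differed between the steps, and 36 of the 72 genes lost their call. Array weights gave 164 higher, and 404 between the steps. With only the arrays of the comparison 149 were higher, 41 at 24 h alone, and 368 and 286 at 12 h against 8 h. The 0 h arrays alone gave 164 higher, and the 24 h arrays alone 118 higher and 153 lower. Each array left out in turn gave 30 to 249 higher and 62 to 237 lower, 22 to 123 and 32 to 123 at 24 h, 0 to 25 between 24 h and 0 h, 87 to 228 and 54 to 215 at 12 h, and 272 to 616 between the steps. The lowest counts at 0 and 24 h came without the 20 h array of series 1, where 51 of the 72 genes lost their call. Without that of series 2, 22 did. Differences near 0 that never passed changed sign. With 24 h alone APL4 was at 0.003991, and with 0 h alone COR27 was at -0.02295 and DPE1 at -0.06369. With each array left out AMY1 ran from -0.2665 to 0.04941, SBE2.2 from -0.1814 to 0.01111, DPE1 from -0.0585 to 0.2412 and COR27 from -0.1248 to 0.2245. Causes were not tested. Signal near the bacterial controls limits the size of differences of low genes.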

Other observations

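Of the 273 named genes that passed, 265 could be placed in the RefSeq order of protein-coding genes (TAIR10.1), and 6 pairs were direct neighbours, 5 with the same direction. The pairs were looked for after the calls were known. AT5G62350 and AT5G62360 fell together (-0.87 and -3.03), as did AT5G57340 and AT5G57345 (-1.18 and -1.79). AT1G78010 and AT1G78020 rose together (0.67 and 1.37), as did AT2G44660 and AT2G44670 (0.46 and 1.04) and AT5G47610 and AT5G47620 (0.96 and 0.63). The exception was AT1G13640, which rose from 51.7 and 60.7 at 20 h to 114 to 175 at 0 and 24 h (1.26 ± 0.14; limma adjusted p = 0.000253), beside AT1G13650, which fell from 70.6 and 69.1 to 9.3 to 19.2 (-2.05 ± 0.49; adjusted p = 0.0419). AT1G13640 passed in all 17 alternatives. AT1G13650 did not pass without either 20 h array (adjusted p = 0.37 without series 1 and 0.10 without series 2, in a range of 0.0154 to 0.374 over 17 alternatives), and its later levels are under the highest bacterial control. The probe sets are separate, and whether neighbours share a direction more often than other pairs was not tested.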
